A study of Homo sapiens with 8 samples.

Results

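The proteins of the mitochondrial ribosome were followed in T3M4 cells, an established human pancreatic cancer line, with and without a guide RNA against METTL13, the methyltransferase that modifies the elongation factor eEF1A. Members were all genes of the count table whose symbol is MRPL or MRPS followed by a number and at most 1 letter. This gave 77 of 14668 genes, of which 49 carry an MRPL symbol (large subunit) and 28 an MRPS symbol (small subunit). They lie on 21 chromosomes. The 4 groups were sgControl cells, carrying a guide without a target, and sgMETTL13 cells, each measured by RNA-seq (mRNA) and by ribosome profiling (footprints), with 2 libraries a group and 8 in all. Every group had 18 h of serum-free culture followed by 2 h in 10% FBS. The labels do not say whether the cells were a clone or a pool, or whether replicates were separate cultures, so the p-values below measure only the spread between these libraries.

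Mitochondrial ribosomes translate the few mRNAs of the mitochondrial genome, which encode core subunits of the respiratory chain. Their RNAs are made inside the organelle, but all of their proteins are encoded in the nucleus, translated by cytosolic ribosomes and imported. Footprints on these mRNAs therefore report cytosolic translation of the parts of another ribosome. Many members have a counterpart in bacteria, and others are found in mitochondria alone. A few symbols mislead: MRPS30 and MRPS18A are proteins of the large subunit.

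The library labels were checked first. METTL13 footprints were 65.2 and 57.8 CPM (the usual depth-scaled count, with TMM factors within the assay) under sgControl against 20.1 and 26.2 CPM under sgMETTL13, or -1.41 on the log2 scale (SE 0.164, adjusted p = 6.38e-07 by edgeR). METTL13 mRNA was 89.7 and 71.4 CPM under sgControl against 25.2 and 35.1 CPM under sgMETTL13, or -1.42 on the log2 scale (SE 0.406, unadjusted p = 0.00457 by edgeR), which did not pass after adjustment. Libraries held 20860953 to 48353722 counts for mRNA and 6063885 to 9837253 for footprints. Summed epithelial markers (KRT8, KRT18, KRT19, EPCAM and CDH1) ranged from 1560 to 1660 CPM in footprints, against at most 25.2 CPM for the fibroblast and 0.484 CPM for the leukocyte markers. The members together took 0.758% and 0.737% of sgControl footprint counts and 0.738% and 0.750% of sgMETTL13 footprint counts, so their summed share overlapped between the arms.

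The stretches upstream of 6 member genes are shown: 5 belong to members that the footprint results turn on, and 1 is given for contrast. MRPS18C, MRPS10 and MRPL20 rose most among the members that passed, and MRPS26 and MRPL55 were among those that fell. MRPL17, chosen after its values were seen, did not pass and is shown for its match to the NRF1 word. Coordinates are those of GRCh38.p14 from RefSeq: MRPS18C, chr4:83455884-83456057 on the plus strand, MRPS10, chr6:42217862-42218111 on the minus strand, MRPL20, chr1:1407294-1407543 on the minus strand, MRPS26, chr20:3045802-3046051 on the plus strand, MRPL55, chr1:228109300-228109549 on the minus strand, and MRPL17, chr11:6683341-6683590 on the minus strand. Each run ends at the base before the annotated start, and that of MRPS18C was cut to 174 bases where the next gene begins. Capitals mark matches, on either strand, to CCGGAAG (the core bound by ETS factors such as GABP) or, in MRPL17, to the word bound by NRF1 (GCGCA, any base, then GCGC).
MRPS18C: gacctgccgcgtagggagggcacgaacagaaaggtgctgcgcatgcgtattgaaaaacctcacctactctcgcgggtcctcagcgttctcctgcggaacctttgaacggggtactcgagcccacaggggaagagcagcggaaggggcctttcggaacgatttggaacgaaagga
MRPS10: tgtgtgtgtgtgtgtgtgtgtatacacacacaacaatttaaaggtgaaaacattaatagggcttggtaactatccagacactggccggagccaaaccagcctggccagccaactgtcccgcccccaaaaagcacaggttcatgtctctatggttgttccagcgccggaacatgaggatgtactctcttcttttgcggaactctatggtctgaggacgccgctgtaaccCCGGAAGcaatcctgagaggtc
MRPL20: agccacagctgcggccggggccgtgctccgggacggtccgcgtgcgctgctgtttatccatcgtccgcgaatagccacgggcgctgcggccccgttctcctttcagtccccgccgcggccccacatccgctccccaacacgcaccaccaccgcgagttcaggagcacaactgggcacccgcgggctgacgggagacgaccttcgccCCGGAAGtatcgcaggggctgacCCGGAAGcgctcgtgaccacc
MRPS26: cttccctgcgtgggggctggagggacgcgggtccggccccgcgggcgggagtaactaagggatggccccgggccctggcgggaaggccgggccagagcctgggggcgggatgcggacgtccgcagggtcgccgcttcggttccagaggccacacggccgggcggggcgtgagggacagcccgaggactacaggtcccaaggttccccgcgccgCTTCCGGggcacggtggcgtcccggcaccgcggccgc
MRPL55: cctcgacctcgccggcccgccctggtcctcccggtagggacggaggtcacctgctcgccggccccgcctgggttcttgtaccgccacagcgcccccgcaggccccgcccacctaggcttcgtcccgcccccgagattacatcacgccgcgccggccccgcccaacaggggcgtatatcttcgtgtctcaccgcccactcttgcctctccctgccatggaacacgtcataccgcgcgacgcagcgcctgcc
MRPL17: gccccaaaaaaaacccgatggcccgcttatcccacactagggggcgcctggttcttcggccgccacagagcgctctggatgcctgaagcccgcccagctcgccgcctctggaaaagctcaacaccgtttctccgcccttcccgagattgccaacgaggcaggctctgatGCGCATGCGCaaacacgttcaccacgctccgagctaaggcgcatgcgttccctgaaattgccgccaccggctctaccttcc

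Of the 77 members, all tested for footprints, 10 rose and 14 fell in sgMETTL13 and 53 did not pass (edgeR, adjusted p below 0.05). That is 31.2% of the members called, beside 21.0% of all 10714 genes tested. By direction, the background was 8.94% of all genes higher and 12.0% lower. The median log2 fold change of the members was -0.00, beside 0.01 over all genes tested. The sgMETTL13 libraries lay above both sgControl libraries for 22 members and below both for 26, which is 62.3% of members beside 64.1% of all genes. The number of calls depended on single libraries. Without sgMETTL13 footprint replicate 2, 2 members were higher and 4 lower, with 6.44% of all genes called. Without sgControl footprint replicate 2, 4 were higher and 7 lower, with 7.49% of all genes called. Leaving out sgControl replicate 1 gave 15 higher and 16 lower, with 27.4% of all genes called, and leaving out sgMETTL13 replicate 1 gave 12 higher and 9 lower, with 14.7%. MRPS18C, MRPL34, MRPL4, MRPL55 and MRPS26 passed in all 4 of these fits. None of the 24 called members changed sign in any of them. That nearly follows from the choice of members, since for all 24 the arms did not overlap in footprints. MRPL33, MRPL58, MRPS10, MRPS25 and MRPS31 were lost in 1 fit, that without sgMETTL13 replicate 2, and MRPL11 in 1, that without sgControl replicate 2. MRPL14 was lost without either sgMETTL13 library. MRPL1, MRPL3, MRPL18, MRPL20, MRPL21, MRPL39, MRPL46 and MRPS21 were lost without sgControl replicate 2 and without sgMETTL13 replicate 2. MRPL27, MRPL28, MRPS12 and MRPS34 passed in 1 of the fits, that without sgControl replicate 1. DESeq2 did not call MRPL21, MRPL27 or MRPS12, and a fit with the replicate number as a block did not call MRPL27 or MRPL28. A single model over all 8 libraries, RNA included, called 0 members and 0 genes in footprints.

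**Figure D1:**
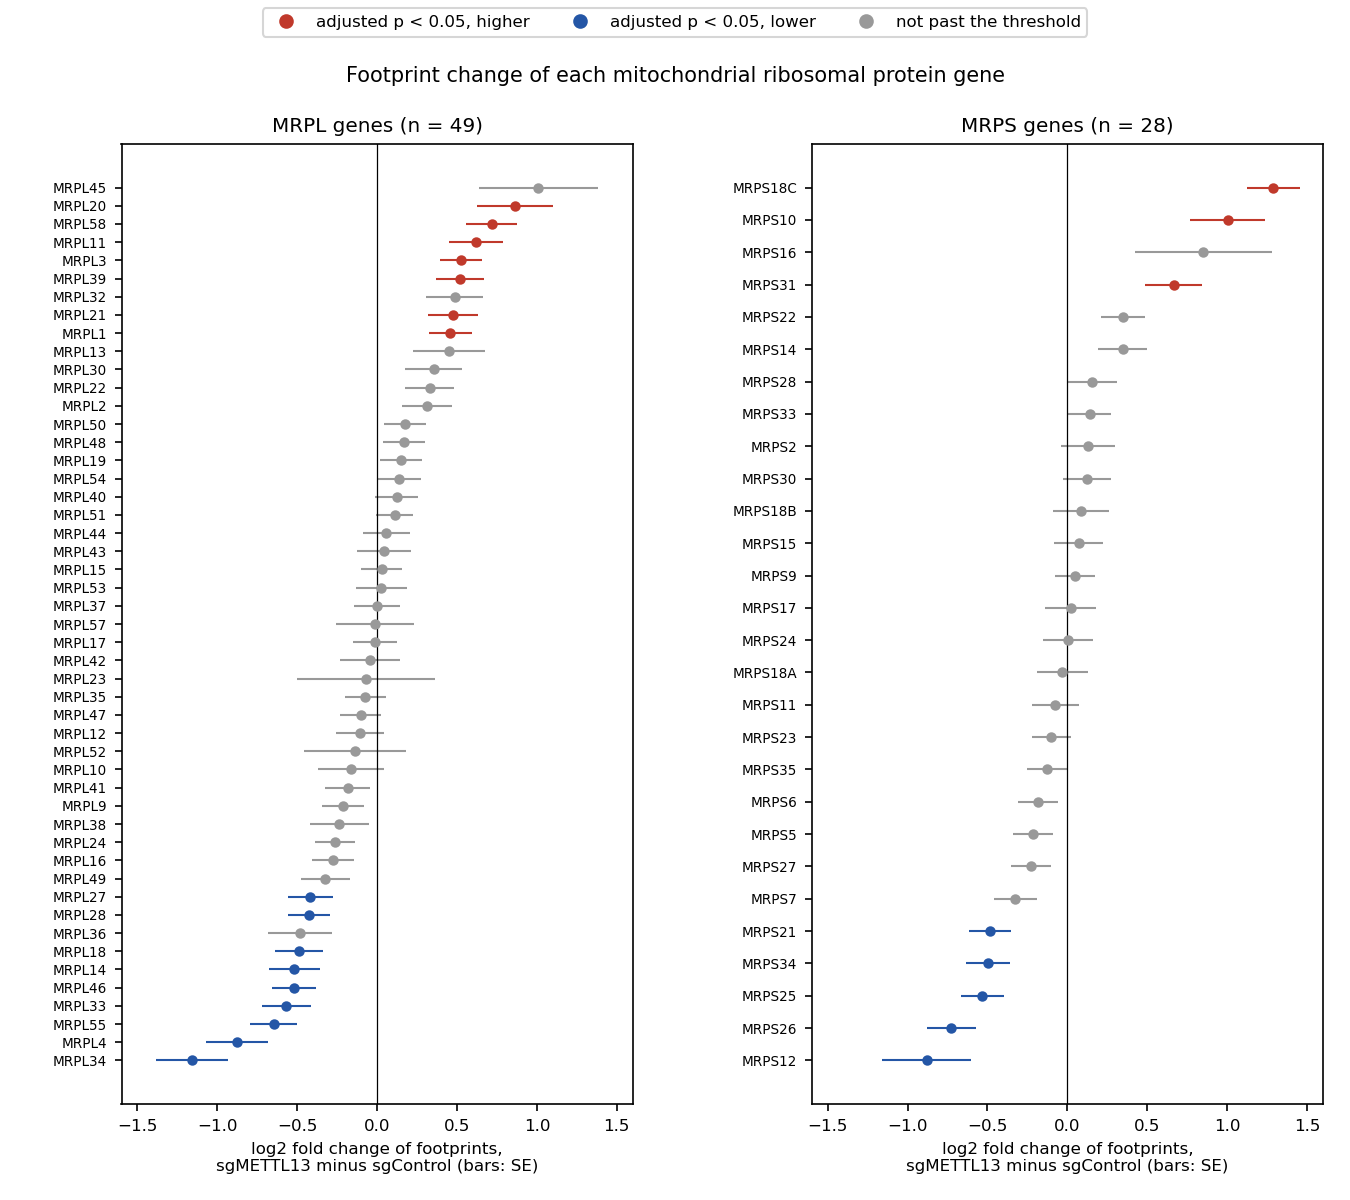
Log2 fold change in footprints (sgMETTL13 minus sgControl, x axis) for the 77 members, with bars of 1 SE and colour for members that passed at adjusted p below 0.05. The 10 members that rose and 14 that fell lie on both sides of 0, from MRPL34 at -1.16 to MRPS18C at 1.29.

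MRPS18C, the protein that fills the place of bacterial S18 in the small subunit, had 31.3 and 21.5 CPM of footprints under sgControl against 61.4 and 69.5 CPM under sgMETTL13. Both sgMETTL13 libraries were above both sgControl libraries, and the log2 fold change was 1.29 (SE 0.169, adjusted p = 5.07e-06 by edgeR). Its mRNA, at 43.0 and 28.4 CPM under sgControl against 45.4 and 34.7 CPM under sgMETTL13, overlapped between the arms. The paralog MRPS18A was at 43.1 and 50.6 CPM of footprints under sgControl against 40.6 and 50.8 CPM under sgMETTL13, or -0.03 on the log2 scale (SE 0.158). The paralog MRPS18B, in the small subunit at another place, was at 28.2 and 22.7 CPM and then 24.5 and 30.0 CPM, or 0.09 on the log2 scale (SE 0.176). The arms overlapped for both of these paralogs. The human genome annotation lists 6 numbered pseudogenes of MRPS18C, and their part in its short footprints was not tested.

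Among the small subunit proteins with a bacterial counterpart, 2 rose and 2 fell of 16 (25% called, near the 21.0% of all genes). MRPS10, a protein of the subunit's head, was at 6.53 and 7.01 CPM of footprints under sgControl against 11.8 and 15.4 CPM under sgMETTL13, or 1.00 on the log2 scale (SE 0.235, adjusted p = 0.00301 by edgeR). MRPS12, a protein of the decoding centre, was at 6.53 and 8.04 CPM under sgControl against 3.56 and 4.28 CPM under sgMETTL13, or -0.88 on the log2 scale (SE 0.277, adjusted p = 0.0231 by edgeR). The arms did not overlap for either gene. The MRPS12 call rested on 35 to 54 counts a library. MRPS21, a small protein with 9 numbered pseudogenes, fell by 0.49 on the log2 scale (adjusted p = 0.00985 by edgeR).

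Of the 10 small subunit proteins particular to mitochondria, 1 rose and 3 fell (40.0%, beside 21.0% of all genes). MRPS26 was at 64.5 and 80.0 CPM of footprints under sgControl against 44.3 and 42.8 CPM under sgMETTL13, or -0.73 on the log2 scale (SE 0.151, adjusted p = 0.00108 by edgeR). MRPS25 moved from 155.0 and 165.9 under sgControl to 120.7 and 100.9 CPM under sgMETTL13, or -0.53 on the log2 scale (adjusted p = 0.00548 by edgeR). MRPS34, a protein of the subunit's foot, fell by 0.50 on the log2 scale (adjusted p = 0.00991 by edgeR). In these 3 genes each sgMETTL13 library was below each sgControl library. MRPS31, the riser, had 21.3 and 21.7 CPM under sgControl against 29.2 and 39.1 CPM under sgMETTL13, or 0.66 on the log2 scale (SE 0.177, adjusted p = 0.00798 by edgeR).

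The large subunit proteins with a bacterial counterpart gave 5 risers and 8 fallers of 30 (43.3%, beside 21.0% of all genes), with a median log2 fold change of -0.09. MRPL34, a small basic protein buried in the ribosomal RNA, was at 19.6 and 32.0 CPM of footprints under sgControl against 13.7 and 9.0 CPM under sgMETTL13, or -1.16 on the log2 scale (SE 0.224, adjusted p = 0.000551 by edgeR). MRPL4, whose bacterial relative lines the exit tunnel, was at 22.6 and 30.6 CPM under sgControl against 13.4 and 15.4 CPM under sgMETTL13, or -0.88 on the log2 scale (SE 0.192, adjusted p = 0.00177 by edgeR). MRPL55 was at 65.3 and 63.9 CPM under sgControl against 39.2 and 43.4 CPM under sgMETTL13, or -0.65 on the log2 scale (SE 0.148, adjusted p = 0.00251 by edgeR). None of the 3 had overlapping arms in footprints, and all 3 had overlapping arms in mRNA. The other fallers were MRPL33 (log2 fold change -0.57), MRPL14 (-0.52), MRPL18 (-0.49), MRPL28 (-0.43) and MRPL27 (-0.42), with edgeR adjusted p-values from 0.00969 to 0.0314.

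The 5 risers of the same class were MRPL20, MRPL11, MRPL3, MRPL21 and MRPL1. MRPL20, whose bacterial relative is needed to assemble the subunit, was at 7.02 and 6.16 CPM of footprints under sgControl against 10.9 and 13.3 CPM under sgMETTL13, or 0.86 on the log2 scale (SE 0.237, adjusted p = 0.0101 by edgeR). MRPL3, near the peptidyl transferase centre, was at 115.9 and 102.8 CPM under sgControl against 155.7 and 159.4 CPM under sgMETTL13, or 0.52 on the log2 scale (SE 0.132, adjusted p = 0.00532 by edgeR). MRPL1, the protein of the stalk beside the tRNA exit, was at 101.0 and 87.0 CPM under sgControl against 122.8 and 136.1 CPM under sgMETTL13, or 0.46 on the log2 scale (SE 0.137, adjusted p = 0.0167 by edgeR). All 3 lay higher in both sgMETTL13 libraries than in either sgControl library. MRPL21 had a log2 fold change of 0.47 (adjusted p = 0.0308 by edgeR).

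At the factor-binding stalk, which recruits the elongation factors, 1 of 3 proteins rose. That is too few to set against the 8.94% of all genes tested that were higher. MRPL11, at its base, was at 45.5 and 29.6 CPM of footprints under sgControl against 59.9 and 56.6 CPM under sgMETTL13, or 0.62 on the log2 scale (SE 0.168, adjusted p = 0.00885 by edgeR). The sgControl libraries of MRPL11 differed from each other more than the sgMETTL13 libraries did. MRPL10 and MRPL12, the other proteins of the stalk, had log2 fold changes of -0.16 (SE 0.206) and -0.11 (SE 0.150) and did not pass.

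Of the 21 large subunit proteins particular to mitochondria, 2 rose and 1 fell (14.3%, below the 21.0% of all genes). MRPL58, a peptidyl-tRNA hydrolase built into the subunit, was at 28.3 and 29.7 CPM of footprints under sgControl against 43.4 and 51.9 CPM under sgMETTL13, or 0.72 on the log2 scale (SE 0.160, adjusted p = 0.00203 by edgeR). MRPL39 moved from 90.4 and 63.4 under sgControl to 108.0 and 113.2 CPM under sgMETTL13, or 0.52 on the log2 scale (adjusted p = 0.0140 by edgeR). MRPL46, a protein of the central protuberance, moved from 175.9 and 212.4 under sgControl to 146.2 and 124.0 CPM under sgMETTL13, or -0.52 on the log2 scale (adjusted p = 0.00701 by edgeR). The arms did not overlap for any of the 3. MRPS30, in this class by its place in the large subunit, had a log2 fold change of 0.12 (SE 0.149). None of the 5 proteins around the tunnel exit passed with all 4 libraries, and 1, MRPL22, was higher without sgControl replicate 1. Among them, MRPL45, which ties the ribosome to the inner membrane, had the largest change of any member that did not pass, with 1.57 and 1.37 CPM under sgControl against 3.15 and 2.85 CPM under sgMETTL13 (1.01 on the log2 scale, SE 0.375, adjusted p = 0.0531 by edgeR), on 8 to 31 counts a library. The class counts also rested on single libraries. They are to be read beside the shares of all genes called in the same left-out fits, given above with the counts over all members. Without sgMETTL13 replicate 2 the large subunit proteins gave 1 riser and 3 fallers among those with a bacterial counterpart and 0 and 0 among those particular to mitochondria, and the small subunit proteins gave 1 and 0 and then 0 and 1. Without sgControl replicate 2 the same classes gave 0 and 5, 1 and 0, 2 and 0, and 1 and 2. Without sgControl replicate 1 they gave 9 and 9, 2 and 1, 3 and 3, and 1 and 3, and without sgMETTL13 replicate 1 they gave 6 and 5, 2 and 1, 3 and 1, and 1 and 2.

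**Figure D2:**
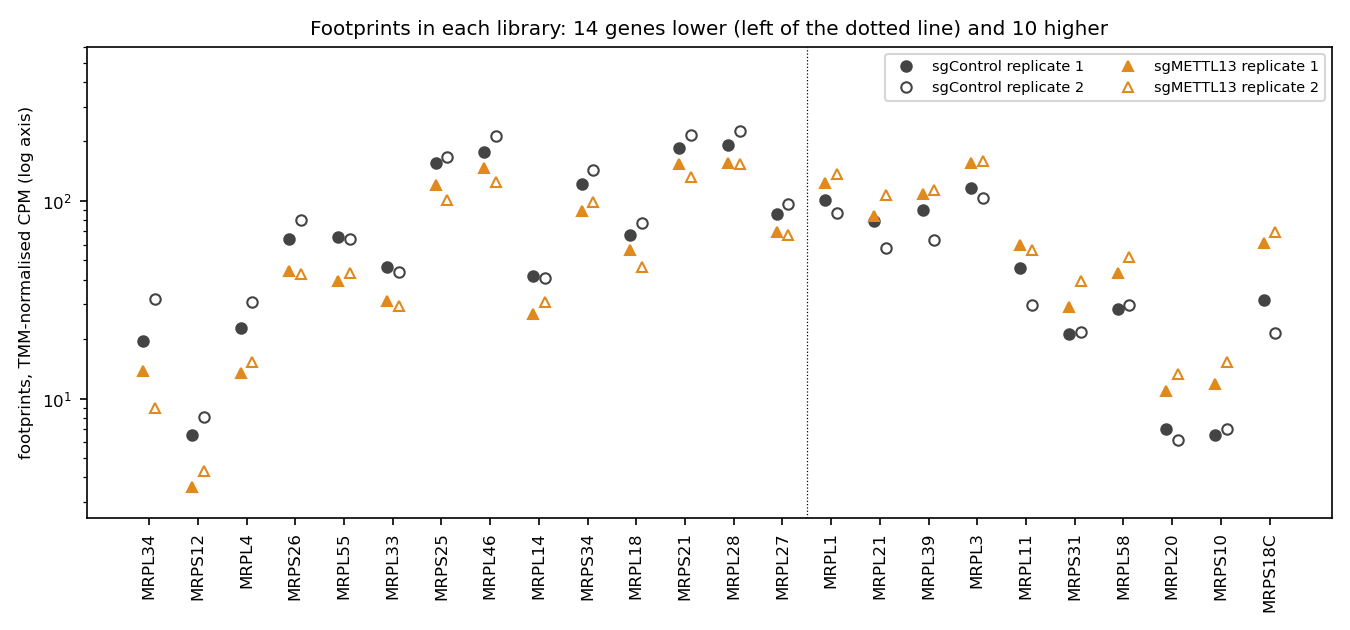
Footprint CPM (log axis) of the members that passed, with 1 point for each of the 4 libraries. For all 24 genes the sgMETTL13 points lie on 1 side of the sgControl points, as in MRPS18C with 31.3 and 21.5 against 61.4 and 69.5 CPM. The genes were picked by a test on these same 4 libraries, so the separation is no further support. Of all genes tested, 64.1% had arms that did not overlap.

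Among the members that did not pass, the largest and smallest values lay on both sides of 0. MRPS16 had a log2 fold change of 0.85 (SE 0.431, adjusted p = 0.159 by edgeR) on 6 to 24 counts a library, and MRPL32 one of 0.48 (SE 0.179, adjusted p = 0.0519 by edgeR). At the low end, MRPL36 stood at -0.48, MRPL49 at -0.32 and MRPS7 at -0.32, with edgeR adjusted p-values of 0.0847, 0.128 and 0.0823. Members with numbered pseudogenes in RefSeq gave 6 risers and 3 fallers of 41 (22.0%), and those without gave 4 risers and 11 fallers of 36 (41.7%), beside 21.0% of all genes (8.94% higher and 12.0% lower). The same split was not made over all genes. For the fits with 1 library left out, the shares of all genes called are those given above with the counts over all members. Without sgMETTL13 replicate 2 the first set gave 2 higher and 0 lower and the second 0 and 4, without sgControl replicate 2 they gave 3 and 2 and then 1 and 5, and without sgMETTL13 replicate 1 they gave 6 and 2 and then 6 and 7. Without sgControl replicate 1 the counts were 9 and 5 in the first set and 6 and 11 in the second. Among the 14 members that fell, sgControl replicate 2 was above sgControl replicate 1 in 11, and among the 10 that rose it was below in 7. These counts were not made over all genes called, so they are not shown to be particular to the members.

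The large and small subunits were compared by symbol. In footprints 7 MRPL genes rose and 9 fell of 49 (32.7%), and 3 MRPS genes rose and 5 fell of 28 (28.6%). Over all genes tested 21.0% were called, 8.94% higher and 12.0% lower. Their median log2 fold changes were -0.01 and 0.01, a difference of -0.03 that ranged from -0.09 to 0.04 with 1 library left out. With MRPS30 and MRPS18A counted in the large subunit the shares were 31.4% of 51 and 30.8% of 26. Without sgMETTL13 replicate 2 the counts were 1 higher and 3 lower for MRPL and 1 higher and 1 lower for MRPS, and without sgControl replicate 2 they were 1 higher and 5 lower for MRPL and 3 higher and 2 lower for MRPS. Without sgControl replicate 1 there were 11 higher and 10 lower for MRPL and 4 higher and 6 lower for MRPS, and without sgMETTL13 replicate 1 the counts were 8 and 6 and then 4 and 3. The shares of all genes called in each of these left-out fits are given above, beside the counts over all members. The difference between the subunits was not tested, since members are not replicates.

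Summed footprint counts of MRPL genes over those of MRPS genes gave ratios of 1.45 and 1.35 in sgControl and 1.51 and 1.52 in sgMETTL13. The sgMETTL13 ratios were above both sgControl ratios, but with 2 libraries against 2 an exact permutation test cannot go below p = 0.333. In mRNA the ratio was 1.84 and 1.70 in sgControl and 1.84 and 1.93 in sgMETTL13, and the arms overlapped. Summed MRPL footprints were 4448.5 and 4395 CPM under sgControl against 4440 and 4426 CPM under sgMETTL13, while summed MRPS footprints were 3058 and 3250 CPM and then 2934 and 2919 CPM. The MRPL sums overlapped between the arms, and the MRPS sums were lower in both sgMETTL13 libraries. For the footprint ratio, the sgControl replicates differed from each other by more than the sgMETTL13 replicates did.

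**Figure D3:**
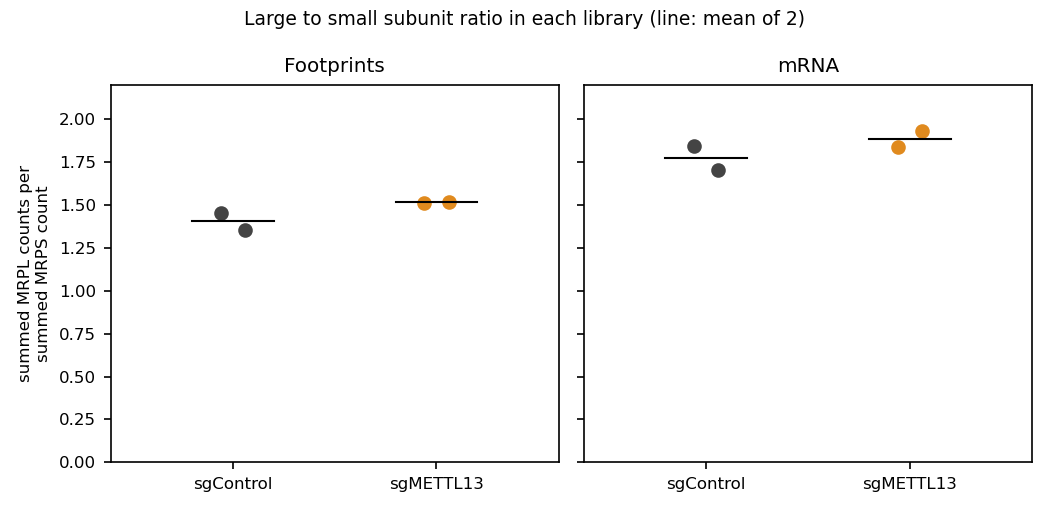
Ratio of summed MRPL to summed MRPS counts (y axis) in each of the 8 libraries, for footprints and mRNA. The footprint ratios are 1.45 and 1.35 in sgControl and 1.51 and 1.52 in sgMETTL13, and the mRNA ratios overlap.

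In mRNA no member passed, of 75 tested, and none of the 12468 genes tested passed (edgeR, adjusted p below 0.05, a background of 0%). The unadjusted p was above 0.05 for each of the 75, and both alternatives, DESeq2 and limma-voom, called 0 members. The members' median log2 fold change was 0.06 (MRPL 0.11, MRPS 0.05), beside 0.04 over all genes tested. For 2 members both sgMETTL13 libraries were above both sgControl libraries (5.11% of all genes) and for 1 both were below (6.84% of all genes), together 4% of members beside 12.0% of all genes. The RNA libraries spread more than the footprint libraries, with a biological coefficient of variation of 0.337 against 0.0992.

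The sgMETTL13 RNA replicates stood furthest apart. They differed at least 2-fold in 11 of 75 members (14.7%, beside 23.6% of all genes), each time with replicate 1 higher. MRPL42 mRNA was at 25.5 and 20.0 CPM under sgControl against 93.7 and 12.1 CPM under sgMETTL13, or 1.22 on the log2 scale (SE 0.706, unadjusted p = 0.111 by edgeR). MRPL19 mRNA was at 47.6 and 34.3 CPM under sgControl against 119.2 and 35.0 CPM under sgMETTL13, or 0.91 on the log2 scale (SE 0.531). MRPL1 mRNA was at 14.3 and 8.81 CPM under sgControl against 39.6 and 8.88 CPM under sgMETTL13, or 1.07 on the log2 scale (SE 0.626). In these 3 genes sgMETTL13 replicate 1 stood alone at the top, and replicate 2 lay within or below the sgControl range. Without that library their mRNA values were -0.85, -0.16 and -0.32 on the log2 scale, so the sign rested on it. In footprints, sgMETTL13 replicates differed at least 2-fold in 1 member, MRPL23, and MRPL42 had 17.4 and 19.0 CPM. The lowest mRNA changes were MRPS11 at -0.43 and MRPL37 at -0.40. Without sgMETTL13 RNA replicate 2, 10 members were higher, with 19.9% of all genes called, and without sgMETTL13 RNA replicate 1 none was, with 0.214% of all genes called. Without sgControl RNA replicate 2 no member passed either, with 0.0315% of all genes called.

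**Figure D4:**
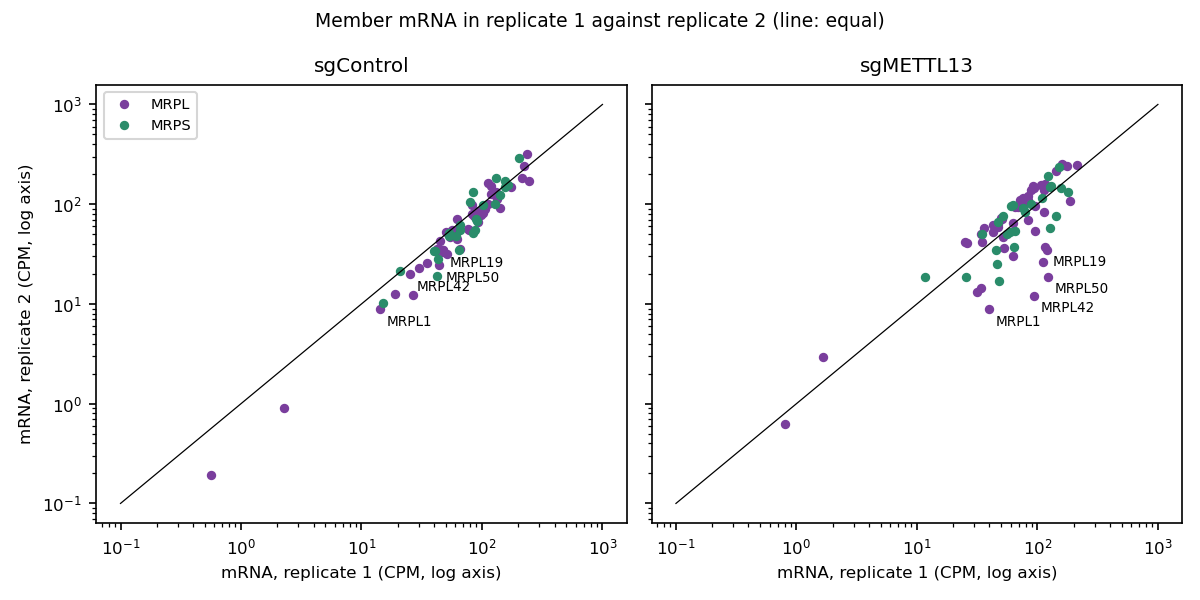
Members' mRNA CPM in replicate 1 against replicate 2 (log axes), in separate panels for sgControl and sgMETTL13. The sgMETTL13 RNA pair spreads more. Its log2 ratios of replicate 1 to replicate 2 have an SD of 0.850, against 0.375 for the sgControl RNA pair. The footprint pairs, not drawn here, have SDs of 0.292 (sgControl) and 0.280 (sgMETTL13).

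Footprints per mRNA, taken as the interaction of arm and assay over all 8 libraries, gave 0 calls among 75 members and 0 among 10446 genes (edgeR, adjusted p below 0.05, a background of 0%), while 3 members had an unadjusted p below 0.05. DESeq2 called 5 genes, of which 0 were members. MRPS18C had the smallest p among the members, with a log2 change of 1.15 (SE 0.435, unadjusted p = 0.0255 by edgeR). MRPL34 followed with -1.15 (SE 0.472, unadjusted p = 0.0372) and MRPS26 with -0.92 (SE 0.393, unadjusted p = 0.0421). The extremes were MRPL42 at -1.22, which was 0.79 without sgMETTL13 RNA replicate 1, and MRPS18C, with MRPL20 next at 0.87. Of the 24 members called in footprints, 23 had the same sign in footprints per mRNA and 14 had it in mRNA. The first count shares its footprint libraries with the call. Neither count was made over all genes called, so neither is shown to be particular to the members. Without sgMETTL13 RNA replicate 1, MRPL14, MRPL55, MRPS12 and MRPS26 were lower, with 4.78% of all genes called. Without sgMETTL13 RNA replicate 2, MRPL20 and MRPL58 were higher and MRPL1, MRPL19, MRPL33, MRPL42, MRPL50 and MRPS35 were lower, with 13.2% of all genes called. No member was in both lists, and all but those named above for other results were named after their values were seen.

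Members ranged widely in footprints relative to mRNA, a ratio of CPM in which gene length cancels where both assays cover the same stretch. The median member stood 0.24 and 0.22 above the all-gene median on the log2 scale in the sgControl pairs. It stood 0.62 and 0.41 above it in the sgMETTL13 pairs, for same-numbered libraries set side by side. These medians of levels do not show a gain by gene. The members' median log2 change in footprints per mRNA was -0.08, beside -0.11 over all genes tested, with 33 members positive and 42 negative. By subunit it was -0.15 for MRPL and -0.02 for MRPS. In sgControl the MRPS genes were at 0.37 and 0.53 and the MRPL genes at 0.07 and 0.07. At the lower end were MRPS16, MRPL20 and MRPS10, at percentiles 0.316, 4.75 and 5.00 of all genes tested, and at the upper end MRPL1 and MRPS6, at percentiles 97.5 and 95.3, all 5 chosen after their values were seen. MRPS16 had 1.21 and 1.03 CPM of footprints beside 140.0 and 124.0 CPM of mRNA in sgControl. The reverse held for MRPS18B and MRPS24, which were not tested in mRNA. MRPS18B had 1, 0, 0 and 1 mRNA counts in the 4 libraries beside 133 to 273 footprint counts, and MRPS24 had 2 to 3 mRNA counts beside 247 to 460 footprint counts. In RefSeq, MRPS24 overlaps the readthrough gene URGCP-MRPS24 on the same strand, which has its own row in the count table. MRPS6 likewise overlaps SLC5A3 on the same strand, and SLC5A3 has its own row there. How reads shared by overlapping genes or pseudogenes were counted is not given in the sources used here, and its part in these values was not tested.

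Other genes of mitochondrial translation were taken from lists of known factors. Among 6 other proteins of the mitochondrial ribosome tested, 2 rose and 1 fell in footprints (50.0% called, beside 21.0% of all genes). OXA1L, the insertase that binds the tunnel exit, rose with a log2 fold change of 0.68, CHCHD1 rose by 0.49 and GADD45GIP1 fell by 0.53 on the log2 scale (edgeR adjusted p = 0.00348, 0.0222 and 0.00275). Of 17 translation factors 3 rose and 0 fell (17.6%), beside 21.0% of all genes in either direction, 8.94% higher and 12.0% lower. The initiation factor MTIF2 had a log2 fold change of 0.60, the recycling factor MRRF 1.48 and the recycling factor GFM2 0.40. Of 30 assembly factors 1 rose and 5 fell (20.0%, near the background of 21.0%). NGRN changed by -0.82, RBFA, a factor that matures the small subunit RNA, by -0.67, DHX30 by -0.48 and NOA1 by -0.50 on the log2 scale. The single riser was NDUFAB1, named after its value was seen, at 0.54.

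Of 20 genes of mitochondrial transcription and mRNA stability 4 rose and 1 fell (25%, beside 21.0% of all genes). SLIRP, which binds and protects mitochondrial mRNAs, had a log2 fold change of 1.29, PNPT1, an RNA-degrading exonuclease, 0.72, and TFAM, which packages and transcribes mitochondrial DNA, 0.51, while ELAC2, which trims the ends of tRNAs, was at -0.63. Of 22 mitochondrial tRNA synthetases and related enzymes 6 rose and 0 fell (27.3%), beside 8.94% of all genes higher and 12.0% lower. Among the risers were GATB at 0.80, GARS1 at 0.60, YARS2 at 0.63 and IARS2 at 0.45. Without sgMETTL13 replicate 2 these lists gave, as higher and lower, 0 and 0 for the other ribosome proteins, 1 and 0 for the translation factors, 0 and 1 for the assembly factors, 2 and 0 for transcription and stability, and 2 and 0 for the synthetases. In the same order, leaving out sgControl replicate 2 gave 1 and 1, 1 and 0, 0 and 1, 3 and 1, and 2 and 0. Leaving out sgMETTL13 replicate 1 gave 1 and 1, 1 and 0, 1 and 3, 3 and 1, and 5 and 0, and leaving out sgControl replicate 1 gave 3 and 1, 5 and 1, 1 and 5, 4 and 2, and 7 and 2. Cytosolic ribosomal proteins rose in 20 of 44 (45.5%) for the large subunit and 16 of 27 (59.3%) for the small one. Over all genes tested 8.94% were higher and 12.0% lower. These proteins gave 0 fallers, with medians of 0.37 and 0.51. Without sgMETTL13 replicate 2 those risers were 10 and 4, and without sgControl replicate 2 they were 16 and 10, with 0 fallers in both fits. Without sgControl replicate 1 there were 20 risers and 4 fallers for the large subunit and 15 and 1 for the small one, and without sgMETTL13 replicate 1 there were 21 and 1 and then 15 and 0. No gene of any of these lists passed in mRNA or in footprints per mRNA. Shares of all genes called in the left-out fits stand above with the counts over all members, not split by direction. Between fits, 44 or 45 large and 27 or 30 small cytosolic proteins were tested. The cytosolic risers differed widely in footprint counts. RPL23A rose on 16 to 88 counts a library and has 95 numbered pseudogenes, while RPS23 rose on 4609 to 10828 and has 10. Both were named after their values were seen, and the part of pseudogene reads was not tested.

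The members' start sites were compared with those of cytosolic ribosomal proteins and of all genes. RefSeq promoters, from 250 bases before to 50 after the first listed start, were matched for 69 of 77 members, 64 cytosolic ribosomal protein genes and 11909 genes of the count table. The ETS word CCGGAAG, on either strand, was in 29 members (42.0%), beside 17.5% of all genes and 34.4% of cytosolic ribosomal protein genes. The YY1 word AANATGGCG was in 18 members (26.1%), beside 6.09% of all genes, and in 16 of them it lay after the start. The NRF1 word was in 8 members (11.6%), beside 10.5% of all genes. By subunit, the ETS word was in 40.5% of MRPL and 44.4% of MRPS promoters and the YY1 word in 26.2% and 25.9%. The last letters of the ETS word can be the first of the YY1 word, so that 1 stretch may match both, and a match is a description of the sequence, not a bound site.

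In the stretches printed above, MRPL20 holds the ETS word at 2 places, MRPS10 at position -22 from the start and MRPS26 at -37, while the stretches of MRPS18C and MRPL55 hold none of the 3 words. The word was thus in promoters of members that rose and of members that fell: in 6 of 9 matched risers, 7 of 14 fallers and 16 of 46 members that did not pass. These counts are over the whole window, and the 6 include MRPS18C through a match at -222, outside its printed stretch and within the span of the neighbouring gene HELQ. A start with C followed by 4 pyrimidines, the form that marks terminal oligopyrimidine mRNAs of the cytosolic ribosome, was annotated for 5 members (7.25%), beside 65.6% of cytosolic ribosomal protein genes and 5.21% of all genes. None of those 5 members passed in footprints, beside 21.0% of all genes tested, and 5 genes are too few to tell these shares apart.

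**Figure D5:**
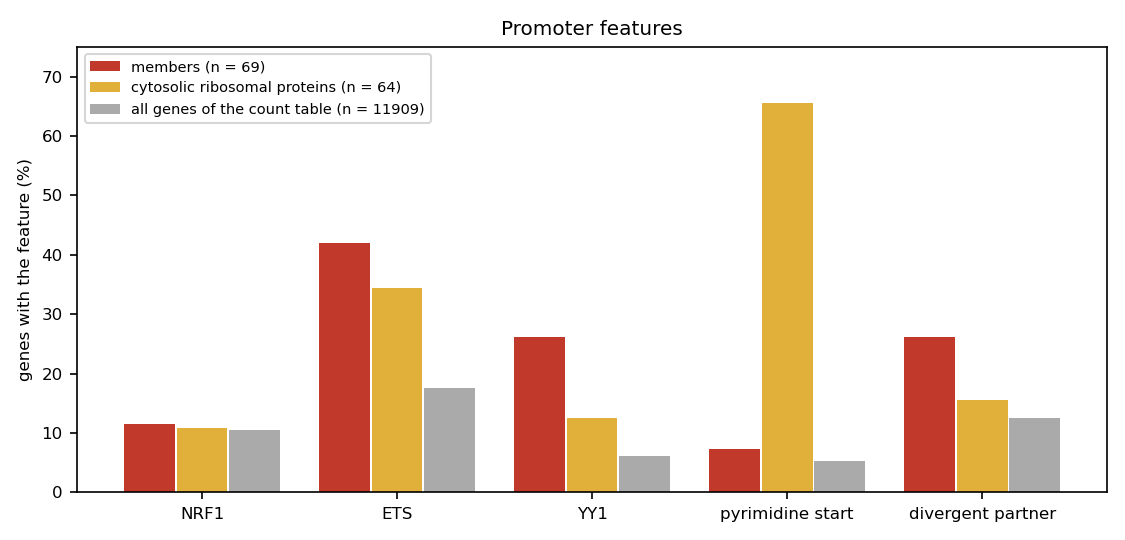
Share of genes (y axis, percent) with each promoter feature among 69 members, 64 cytosolic ribosomal protein genes and 11909 genes of the count table. The members' bars stand above those of all genes for the ETS word (42.0% and 17.5%) and the YY1 word (26.1% and 6.09%). They also do so for a divergent partner (26.1% and 12.5%), but partners were sought for and among protein-coding genes alone. Any other gene counts as having none. The pyrimidine start is frequent in the cytosolic set.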

How the data were processed

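The authors deposited 1 table of raw counts per gene symbol for 8 libraries, whole numbers with no normalisation. Named in the submitters' processing notes are cutadapt 1.18, Bowtie 1.2.2, UMI-tools, HISAT2 2.0.4 and featureCounts, on hg38. Their roles, the annotation, the strand setting and the handling of multi-mapping reads are not given in the sources used here. Members, lists and promoter words were chosen with earlier results of these data known.

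Counts were tested with edgeR 4.0.16 (R 4.3.3; filterByExpr, TMM, quasi-likelihood F test) within each assay, and over all 8 libraries with an interaction for footprints per mRNA. Adjustment (Benjamini-Hochberg) ran over every gene tested, with a threshold of 0.05. DESeq2 1.42.0 and limma 3.58.1 were alternatives. SEs are those of the log2 fold change. The procedure was tested on simulated data with 200 changed genes, drawn with each gene's estimated spread and no outlying library. That test does not bear on the dependence on single libraries, and no result above draws on it. The text names members past the threshold, the 3 largest and 3 smallest changes among the others in footprints, in mRNA and footprints per mRNA the 3 smallest p-values and the 2 largest and 2 smallest changes, and up to 4 genes of each other list. A set of members was named whatever its values: MRPS18A, MRPS18B, MRPS18C, MRPS30, MRPL10, MRPL11, MRPL12, MRPL45, MRPL58 and MRPS12. Footprint density per coding length was planned and not computed, since no table of coding lengths was used here, so footprint levels are not compared between genes, and genes are ranked by the ratio of footprints to mRNA alone.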

Additional observations from a re-analysis of the deposited data

How the results depend on the processing

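None of the 24 members called in footprints changed sign under the settings run. With 1 library left out this nearly follows from arms that did not overlap for any of the 24. MRPS18A, MRPS18B, MRPS30 and MRPL12, which did not pass and had overlapping arms, changed sign in 1 or 2 of those fits. In footprints 2245 genes passed with all 4 libraries, 1479 with DESeq2 and 701 to 3018 with 1 library left out. Members higher ranged from 2 to 15 and lower from 4 to 16 across those left-out fits, where the arm left with 1 library is assumed to vary like the other. With all 8 libraries in 1 model, which takes in the wider spread of the RNA libraries, 0 genes and 0 members in either direction passed. A fit with the replicate number as a block called 1729 genes in footprints, with 11 members higher and 12 lower, and 0 in mRNA and in footprints per mRNA. The labels do not say that numbers mark pairs. Differences between replicates 1 and 2 correlated over genes at -0.19 between the footprint arms and at 0.43 between the RNA arms, and at 0.17 and 0.01 between the assays within sgControl and sgMETTL13. With the numbers crossed, an alternative chosen after seeing the data, 3220 genes passed, with 16 members higher and 16 lower. In mRNA 0 genes passed with all libraries and 0 to 2509 with 1 left out, with 0 to 10 members higher. In footprints per mRNA 0 genes passed, 5 with DESeq2 and 0 to 1384 with 1 library left out, with 0 to 2 members higher and 0 to 6 lower. The cause of these shifts was not tested. With 2 libraries a group, a member that did not pass is not shown to be unchanged, above all in mRNA.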

Other observations

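Of the 69 members with a matched promoter, 18 (26.1%) had a divergent partner, beside 12.5% of all genes. A partner was another protein-coding gene starting within 1000 bases on the other strand and pointing away. Partners were sought for protein-coding genes alone. Any other gene counts as having none in the 12.5%, so these shares are not like for like. The partner was tested in footprints for 16. Among these pairs, MRPL46 and MRPS11 start 320 bases apart and are both members: MRPL46 fell by 0.52 on the log2 scale, and MRPS11 had a log2 fold change of -0.08 and did not pass. MRPS18C and HELQ, a DNA helicase gene, start 175 bases apart. MRPS18C rose, and HELQ footprints had a log2 fold change of -0.73 (adjusted p = 0.0279 by edgeR). This was the single pair in which a called member had a called partner, of 5 called members with a tested partner.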
